A study of Mus musculus with 6 samples.

Results

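The transcription factors of the epithelial-mesenchymal transition (EMT), vimentin and 3 epithelial regulators were followed in cells labelled as ovarian surface epithelium, the cell layer that covers the ovary. The members were all probe sets annotated to exactly 1 of 10 genes. They were the mesenchymal regulators Snai1, Snai2, Twist1, Twist2, Zeb1 and Zeb2, the filament gene Vim, and the epithelial regulators Grhl2, Ovol2 and Elf3. These 10 of 18193 named genes gave 23 of 45037 probe sets, 17 of mesenchymal and 6 of epithelial genes, and every one of the 10 genes had at least 1. The primary cells came from virgin FVB/N mice, 8 weeks old, and spent 24 hours in culture. ALDEFLUOR, which becomes fluorescent in cells with aldehyde dehydrogenase (ALDH) activity, was used to sort an ALDH-positive and an ALDH-negative fraction. For every pool of 10 mice (3 in all) both fractions were hybridised to an Affymetrix Mouse Genome 430 2.0 array, so that each fraction had 3 arrays. Both fractions share the strain, age, culture and staining, and cells treated with an ALDH inhibitor and unstained cells served as staining controls. Each value is that of a pool, so the spread between single mice was not measured.

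In EMT, epithelial cells lose junctions and polarity and take on the shape and motility of mesenchymal cells. The zinc finger proteins of the Snail and Zeb families repress epithelial genes through E-boxes, short DNA elements, while the Twist proteins are basic helix-loop-helix factors that also bind E-boxes. Grhl2, Ovol2 and the ETS factor Elf3 act in the other direction and maintain epithelial identity, and Grhl2 and Ovol2 are known repressors of Zeb1. Vimentin is the main intermediate filament of mesenchymal cells. The ovarian surface epithelium is a mesothelium of coelomic origin known to carry both keratins and vimentin.

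The promoters of 4 members are shown because the Snail and Zeb proteins are known to bind the E-box CAGGTG, whose other strand reads CACCTG. The 250 bases before the annotated transcript start were taken from RefSeq (GRCm38.p6), which gave 10 windows for 7 of the 10 genes. A match on either strand was found in 2 members, Snai1 and Elf3. Of all 32851 windows of this length, 17.2% held such a match. The match is in capitals, and its bases lie 126 to 121 before the start in Snai1 and 140 to 135 before the start in Elf3. The windows of Vim and Ovol2, shown beside them, held none, nor did those of Twist1, Twist2 and Zeb2. The Snai1 window is chr2:167537945-167538194 on the plus strand, that of Elf3 chr1:135258473-135258722 on the minus strand, that of Vim chr2:13574061-13574310 on the plus strand and that of Ovol2 chr2:144331363-144331612 on the minus strand. A match describes the letters in this window and says nothing of binding.
Snai1: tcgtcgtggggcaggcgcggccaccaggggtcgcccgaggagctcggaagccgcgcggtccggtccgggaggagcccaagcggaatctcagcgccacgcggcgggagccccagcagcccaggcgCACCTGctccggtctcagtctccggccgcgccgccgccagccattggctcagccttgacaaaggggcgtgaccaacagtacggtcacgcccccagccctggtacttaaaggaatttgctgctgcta
Elf3: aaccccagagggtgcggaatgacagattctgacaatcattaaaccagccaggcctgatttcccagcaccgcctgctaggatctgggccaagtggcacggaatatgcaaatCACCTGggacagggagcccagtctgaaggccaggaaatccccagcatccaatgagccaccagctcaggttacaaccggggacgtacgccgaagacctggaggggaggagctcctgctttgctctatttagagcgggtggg
Vim: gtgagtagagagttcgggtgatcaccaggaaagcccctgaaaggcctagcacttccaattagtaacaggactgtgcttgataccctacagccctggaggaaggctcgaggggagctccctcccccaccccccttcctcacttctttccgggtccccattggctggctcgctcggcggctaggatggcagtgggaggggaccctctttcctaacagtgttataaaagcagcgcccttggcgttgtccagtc
Ovol2: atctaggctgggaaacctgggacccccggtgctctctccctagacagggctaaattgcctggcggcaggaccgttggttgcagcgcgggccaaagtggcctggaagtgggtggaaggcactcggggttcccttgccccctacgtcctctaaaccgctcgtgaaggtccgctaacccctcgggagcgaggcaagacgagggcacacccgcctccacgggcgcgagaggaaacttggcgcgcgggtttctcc

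Values are log2 signals after quantile normalization, which gives all arrays the same distribution. In pool 2 the array of ALDH-negative cells was unlike the rest, with a correlation of 0.558 to 0.679 to the other arrays, against 0.850 to 0.974 among the other 5. It was the lowest of the 6 arrays at 35.1% of the tested probe sets and the highest at 37.4%. The difference without pool 2 is therefore given beside the mean of each tested gene. Probe sets whose mean over the 6 arrays lay at or below a log2 level of 2.73 (the lower 40%) were described but not tested, which left 27022. Of the 23 member probe sets 15 passed, 13 of mesenchymal and 2 of epithelial genes. Fractions were compared within pools with limma, and p-values were adjusted by the Benjamini-Hochberg method over all probe sets tested.

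No member passed the threshold of 0.05 in this comparison, and no other probe set did (0% of all tested, lowest limma adjusted p = 0.765). At an unadjusted p under 0.05, 1 of the 13 tested mesenchymal probe sets and 0 of the 2 epithelial ones were counted, against 2.45% of all tested. The adjusted p-values of the 15 tested members lay between 0.89 and 0.99. The data thus describe the level of these genes in both fractions. They do not resolve a difference between the fractions at this number of pools. Leaving out pool 1 gave 7 calls over all probe sets. In that fit the tested members all had the same SE (1.24), so that such calls follow the size of the difference alone. Array weights, which weighted pools 1 to 3 by 1.30, 0.16 and 4.87 and so leaned mostly on pool 3, gave 2953 calls. Among them were 3 member probe sets that are named with the processing alternatives.

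**Figure D1:**
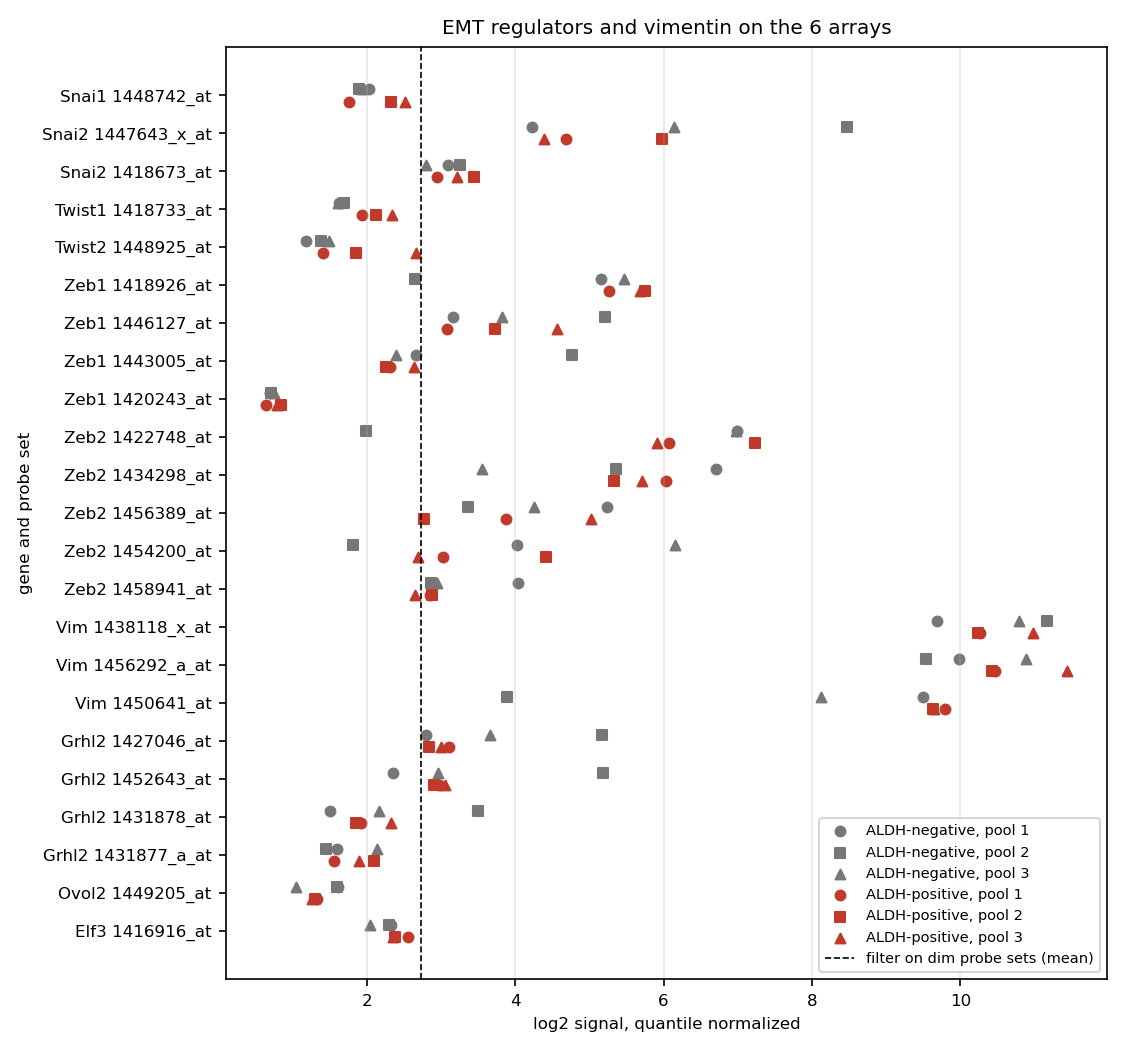
Log2 signal (x axis) of the 23 member probe sets (y axis) on the 6 arrays. Grey marks are ALDH-negative and red marks ALDH-positive, the shape gives the pool, and the dashed line is the filter level of 2.73, which applies to the mean over the arrays. Vim lies far to the right in both fractions except for 1 probe set on the ALDH-negative array of pool 2 (3.89), while Snai1, Twist1, Twist2, Ovol2 and Elf3 lie left of the line on every array.

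Vim was bright in both fractions. Its probe set 1438118_x_at read 9.68, 11.17 and 10.79 in ALDH-negative cells of pools 1 to 3, and 10.26, 10.24 and 10.98 in ALDH-positive cells. The fractions overlapped, and the mean difference, ALDH-positive minus ALDH-negative as throughout, was -0.06 (SE 0.67, 95% interval -1.63 to 1.52, n = 3 pools). Without pool 2 its sign turned, to 0.38. Probe set 1456292_a_at read 9.98, 9.54 and 10.88 against 10.46, 10.43 and 11.43. Every pool was higher in ALDH-positive cells here, by 0.48, 0.89 and 0.56, yet the fractions overlapped because pool 3 was the brightest pool in both. The mean was 0.64 (SE 0.63, limma adjusted p = 0.89), and 0.52 without pool 2. Both of these probe sets are annotated to the same source sequence, so that they are not independent readings of Vim.

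The Vim probe set with another source sequence, 1450641_at, gave a different picture. It read 9.50, 3.89 and 8.12 on the ALDH-negative arrays and 9.79, 9.62 and 9.64 on the ALDH-positive ones. The fractions did not overlap, as for 3.49% of all tested probe sets in this direction, and this was the member counted at an unadjusted p under 0.05 (difference 2.51, SE 1.06, limma adjusted p = 0.89). Its pool differences were 0.29, 5.73 and 1.52, so that pool 2 gave the larger part of the mean. Without pool 2 the difference was 0.91. In the values as deposited its fractions overlapped, since the ALDH-negative array of pool 1 read 9.83 and the ALDH-positive array of pool 3 read 9.75. On that ALDH-negative array of pool 2 the 3 Vim probe sets thus ranged from 3.89 to 11.17. The array's quality control probe sets for Gapdh, a housekeeping gene, read 10.07 at the 3' end and 7.92 at the 5' end there as deposited, against 11.25 and 10.11 on the ALDH-positive array of that pool. The gap between the ends was wider in pool 3, where the ALDH-negative array read 10.22 and 6.63 and its ALDH-positive partner 10.50 and 5.20, so that it was not particular to the pool 2 array. The control probe sets for beta-actin read 5.03 at the 3' end and 4.81 at the 5' end on that array, and 8.58 to 11.32 on the other 5. Whether RNA quality had a part in the Vim value was not tested.

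In pools 1 and 3 all 3 Vim probe sets read higher in ALDH-positive cells, by 0.18 to 1.52. For single probe sets the share that was higher in both of these pools was 25.7% of all tested. The 3 probe sets belong to 1 gene and are not separate pieces of evidence.

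All Zeb2 and all but 1 of the Zeb1 probe sets passed the filter. Zeb1 probe set 1418926_at read 5.15, 2.65 and 5.47 on the ALDH-negative arrays and 5.27, 5.76 and 5.68 on the ALDH-positive ones. The 5 arrays other than the ALDH-negative one of pool 2 lay between 5.15 and 5.76. The differences were 0.11, 3.11 and 0.21, with a mean of 1.14 (SE 0.81), which became 0.16 without pool 2. In the values as deposited pool 1 was lower in ALDH-positive cells, at 5.45 against 5.58. The other tested Zeb1 probe sets had their highest value on that same array. Probe set 1446127_at read 3.16, 5.21 and 3.83 against 3.08, 3.72 and 4.56 (difference -0.28, SE 0.72, and 0.33 without pool 2). Probe set 1443005_at read 2.66, 4.76 and 2.39 against 2.31, 2.26 and 2.63 (difference -0.87, SE 0.77, and -0.06 without pool 2), and its 5 other values all lay below the filter level. The fourth, 1420243_at, lay between 0.64 and 0.85 on all arrays and was not tested. The mean difference of Zeb1 was thus positive for 1 tested probe set and negative for the other 2, and all 3 lay closer to each other without pool 2.

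Zeb2 had 5 probe sets, all of them tested. The brightest, 1422748_at, read 6.99, 1.99 and 6.97 on the ALDH-negative arrays and 6.08, 7.23 and 5.91 on the ALDH-positive ones. Its differences were -0.92, 5.23 and -1.06, so that pools 1 and 3 were lower in ALDH-positive cells and pool 2 was higher. The mean was 1.09 (SE 1.25, 95% interval -1.83 to 4.00), and without pool 2 it was -0.99 (SE 0.40, limma adjusted p = 0.91). Lower values in both pools 1 and 3 were found for 26.4% of all tested probe sets.

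In pool 1 all 5 Zeb2 probe sets read lower in ALDH-positive cells, by values from -1.37 to -0.68. For single probe sets the share that was lower in this pool was 50.4% of all tested. The 5 readings come from 1 gene on 1 pair of arrays and are not separate pieces of evidence. Pool 3 did not show lower values for each. Probe set 1434298_at read 6.71, 5.36 and 3.55 against 6.03, 5.33 and 5.71, with a difference of 2.16 in pool 3 and a mean of 0.49 (SE 0.77), and 0.74 without pool 2. Probe set 1456389_at read 5.24, 3.37 and 4.26 against 3.87, 2.78 and 5.02, with 0.76 in pool 3 and a mean of -0.40 (SE 0.71), and -0.31 without pool 2. These 2 were higher in ALDH-positive cells of pool 3, and the other 3 were lower there. Probe set 1454200_at read 4.03, 1.82 and 6.16 against 3.03, 4.41 and 2.69, with -3.47 in pool 3 and a mean of -0.62 (SE 1.11), and -2.23 without pool 2. Probe set 1458941_at was dim, at 4.04, 2.86 and 2.95 against 2.85, 2.87 and 2.66 (mean -0.49, SE 0.66, and -0.74 without pool 2). In pool 3 the Zeb2 differences thus ran from -3.47 to 2.16, with no common direction.

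Zeb2 is also known in leukocytes and endothelial cells. The mean over 5 endothelial markers read 3.67, 2.80 and 2.69 on the ALDH-negative arrays and 2.38, 2.34 and 2.38 on the ALDH-positive ones, with 2 of the 5 markers above the filter level in their mean. Tek, a vascular receptor, read below the filter level on every array. Over 6 leukocyte markers the mean was 2.72, 3.35 and 3.62 against 2.55, 2.13 and 3.30, with 3 of the 6 above the filter. Csf1r, the receptor of macrophage colony-stimulating factor, read 4.96, 3.05 and 8.18 against 4.49, 2.76 and 8.06, and Cd52 lay below the filter level on every array. The other tested leukocyte markers were mixed, with -0.0029, -3.48 and 0.78 for Ptprc and 0.32, -1.07 and -0.93 for Cd68. Of the tested endothelial markers, Eng was lower in each pool, while Pecam1 differed by -0.56, 0.56 and -0.03. The endothelial mean was lower in ALDH-positive cells of each pool, as was the leukocyte mean, but not every marker of these lists was. Their part in the Zeb2 values was not tested. In such samples, fewer cells of a type and less RNA per cell cannot be told apart.

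**Figure D2:**
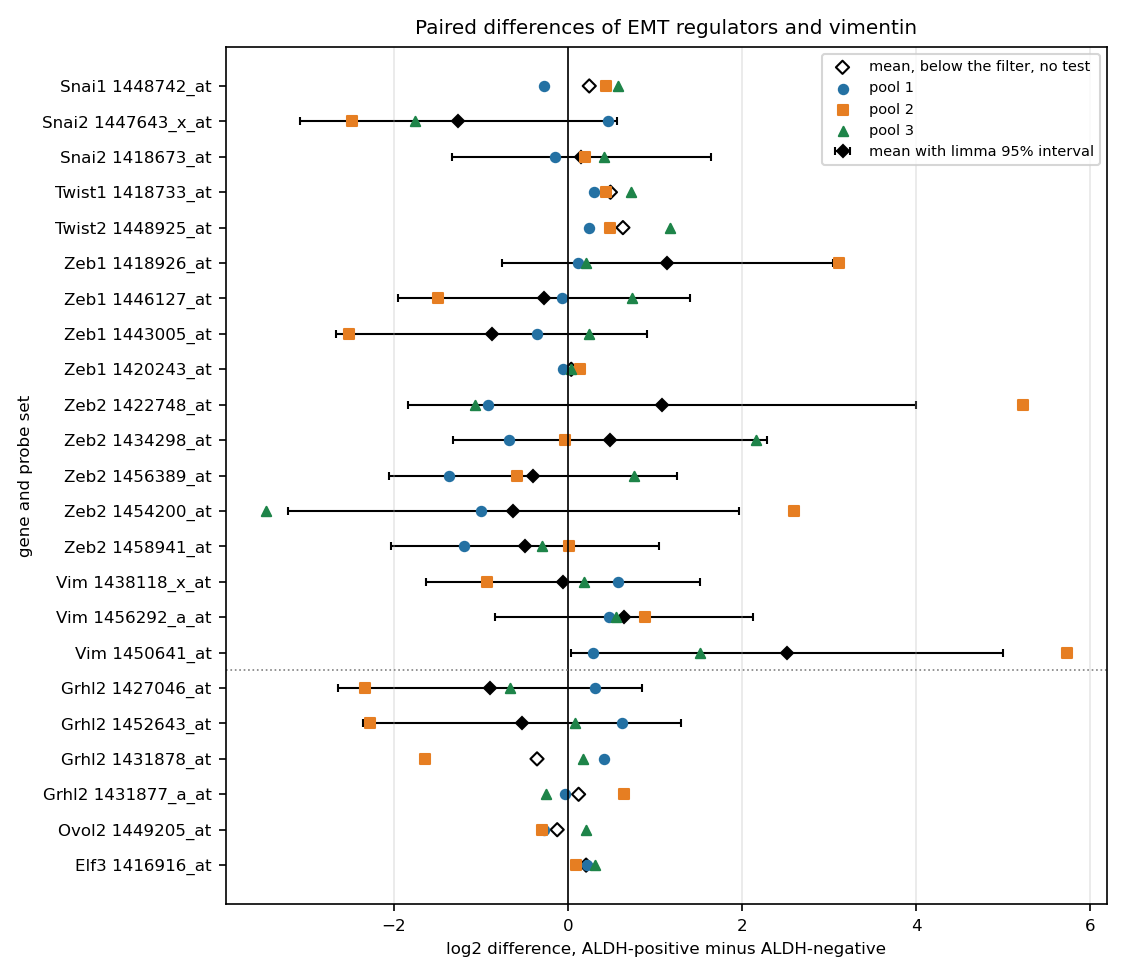
Log2 difference (x axis, ALDH-positive minus ALDH-negative) of each member probe set (y axis) in pools 1 to 3, with the mean over the pools. Black diamonds with bars are limma means with 95% intervals (tested), open diamonds are means of probe sets below the filter, and the dotted line divides mesenchymal from epithelial genes. Pool 2 (orange squares) lies far from the other pools for Zeb1 1418926_at (3.11), Zeb2 1422748_at (5.23) and Vim 1450641_at (5.73) on the right and for 2 Grhl2 probe sets (-2.33 and -2.28) on the left.

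Of the Snail factors, Snai2 passed the filter and Snai1 did not. Snai2, also called Slug, had 2 tested probe sets. Probe set 1418673_at lay close to the filter level, at 3.09, 3.25 and 2.80 on the ALDH-negative arrays and 2.95, 3.45 and 3.22 on the ALDH-positive ones. The fractions overlapped, and the difference was 0.16 (SE 0.64, 95% interval -1.33 to 1.64), and 0.14 without pool 2. Probe set 1447643_x_at read higher, at 4.22, 8.47 and 6.14 against 4.69, 5.98 and 4.39. Its differences of 0.46, -2.48 and -1.75 gave a mean of -1.26 (SE 0.78), and -0.64 without pool 2. The ending "_x_at" marks, in Affymetrix naming, probes that may also bind other sequences, so that this probe set is uncertain as a reading of Snai2. The same limit holds for Vim probe set 1438118_x_at, which stands for Vim in the medians. Snai1, the founding member of the family, read 2.03, 1.90 and 1.94 against 1.76, 2.33 and 2.51, all below the filter level, with differences of -0.27, 0.44 and 0.57.

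Twist1 and Twist2 lay below the filter level on every array. Twist1 read 1.63, 1.69 and 1.61 on the ALDH-negative arrays and 1.93, 2.13 and 2.34 on the ALDH-positive ones. These values did not overlap, with differences of 0.30, 0.43 and 0.73 (mean 0.49, SD of the pools 0.22). Of tested probe sets 3.49% did not overlap in this direction, and the share below the filter was not counted. Twist2 read 1.17, 1.38 and 1.49 against 1.42, 1.86 and 2.66, with differences of 0.24, 0.48 and 1.18 (mean 0.63, SD 0.49). After normalization both were thus slightly higher in ALDH-positive cells of each pool, at signals below the filter level, and were not tested. This depended on the scaling. In the values as deposited pool 2 was lower in ALDH-positive cells, at 1.91 against 2.22 for Twist1 and 1.61 against 1.85 for Twist2, the Twist1 values of the fractions overlapped, and its mean difference was 0.26.

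The epithelial regulators were dim in both fractions. Grhl2, a grainyhead factor, had 2 tested probe sets. Probe set 1427046_at read 2.80, 5.17 and 3.67 on the ALDH-negative arrays and 3.11, 2.84 and 3.01 on the ALDH-positive ones. Probe set 1452643_at read 2.35, 5.18 and 2.96 against 2.97, 2.90 and 3.05. The highest value of both came from ALDH-negative cells of pool 2, and the fractions overlapped. The differences were -0.90 (SE 0.75) and -0.52 (SE 0.78), and -0.18 and 0.35 without pool 2. In pools 1 and 3 the ALDH-positive values of both stayed within 0.66 of the ALDH-negative ones. Of the other Grhl2 probe sets, 1431878_at lay at 1.51 to 3.50 and 1431877_a_at at 1.46 to 2.14, below the filter in the mean.

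Ovol2, a zinc finger repressor of the mesenchymal programme, read 1.61, 1.60 and 1.05 on the ALDH-negative arrays and 1.34, 1.30 and 1.26 on the ALDH-positive ones. Its differences were -0.28, -0.29 and 0.20. Elf3 read 2.33, 2.29 and 2.04 against 2.55, 2.38 and 2.35. The Elf3 values of the fractions did not overlap, although the difference was only 0.21 (SD of the pools 0.11) at a level below the filter, and it was -0.02 in the values as deposited. Here too, 3.49% of tested probe sets did not overlap in this direction, and the share below the filter was not counted.

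With the probe set of highest mean standing for each gene, the median difference of the 7 mesenchymal genes was 0.49, with 5 higher and 2 lower. Over all 17 mesenchymal probe sets the median was 0.16, with 10 higher and 7 lower, and over the 13 tested ones it was -0.06, with 6 higher and 7 lower. That of the 3 epithelial regulators was -0.12, with 1 higher and 2 lower, and over their 6 probe sets it was -0.24. Over all 45037 probe sets the median was -0.07. By pool, with 1 probe set a gene, the mesenchymal medians were 0.24, 0.44 and 0.21, and the epithelial ones 0.22, -0.29 and 0.20. Without pool 2 they were 0.16 and -0.04. In pools 1 and 3 the medians of both groups differed by little on this choice of probe sets. Over all member probe sets they did not lie close, at -0.07 and 0.42 for the mesenchymal and 0.27 and 0.13 for the epithelial genes in these pools. Of these genes, 4 mesenchymal and 1 epithelial had that probe set above the filter, so that the medians include values below the filter level.

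Partners and targets of these factors came from a list of other EMT genes. On the mesenchymal side 15 of 19 measured genes were tested, with 0 past the adjusted threshold, 11 higher and 4 lower, and a median of 0.48, against -0.04 over all probe sets tested. At an unadjusted p under 0.05 there were 3 of the 15, against 2.45% of all tested. The list was chosen with earlier results of these data known, so its median and counts support nothing. The matrix protein fibronectin, Fn1, read 5.16, 3.97 and 5.67 on the ALDH-negative arrays and 7.73, 6.72 and 8.17 on the ALDH-positive ones. Its differences of 2.57, 2.75 and 2.50 were close to each other in all pools (mean 2.61, SE 0.63, limma adjusted p = 0.89), and the mean was 2.54 without pool 2. S100a4, a calcium-binding protein of motile cells, differed by 0.60, 3.55 and 2.85 (mean 2.34, SE 0.78), and by 1.73 without pool 2. The matrix metalloproteinase Mmp2 differed by 1.31, 3.90 and 1.03 (mean 2.08, SE 0.79), and by 1.17 without pool 2. The transcription factor Sox9 differed by 0.76, 0.76 and 1.72 (mean 1.08, SE 0.65), and by 1.24 without pool 2. None of these 4 genes overlapped between the fractions, against 3.49% of all tested probe sets in this direction, but they were named for the smallest p of the list and this count supports nothing. Without pool 2 the list had a median of 0.20, with 10 higher and 5 lower. The size of the median also depended on the scaling: it was 0.96 in the values as deposited, 1.13 with arrays centred on their median and 1.08 with the mean over the probe sets of a gene, each with 13 higher and 2 lower.

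Genes of the epithelial side were also higher in part. Of 20 measured genes 13 were tested, with 0 past the adjusted threshold, 9 higher and 4 lower, and a median of 0.58. Without pool 2 there were 12 higher and 1 lower, with the same median. Without pool 1 there were 7 higher and 6 lower, with a median of 0.43. Without pool 3 there were 9 higher and 4 lower, with a median of 0.71. At an unadjusted p under 0.05 there were 3 of the 13, against the same 2.45% of all tested. This list was also chosen with earlier results known, so its median and counts support nothing either. Krt18, a keratin of simple epithelia, differed by 3.69 (SE 0.85, 2.68 without pool 2). Its partner Krt8 differed by 2.02 (SE 0.68, 1.60 without pool 2). The Krt8 probe set also ends in "_x_at" and may bind other sequences. Cdh1, the cadherin of epithelial junctions and a known target of the Snail and Zeb repressors, read 2.39, 2.16 and 3.30 against 5.15, 5.27 and 3.38. Its pool differences were 2.76, 3.11 and 0.079, so that pool 3 hardly differed (mean 1.98, SE 0.80, and 1.42 without pool 2). The protease inhibitor Spint1 differed by 1.33 (SE 0.68), with 2.32, 0.82 and 0.86 in the pools and 1.59 without pool 2. The fractions did not overlap for any of these 4, against the same 3.49% of all tested, and they too were named for the smallest p.

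Vim and these keratins both had signal on the ALDH-positive arrays. The 3 Vim probe sets read 9.62 to 11.43, Krt18 read 9.11, 9.11 and 8.80, and Krt8 read 8.71, 8.74 and 9.31. Each array holds RNA of many cells, so whether the same cells carried both was not measured. In ALDH-negative cells of pools 1 and 3 Vim lay at 8.12 to 10.88, while Krt18 read 5.72 and 6.82 and Krt8 read 6.74 and 8.07. For Krt18 these 2 pools differed by 3.38 and 1.98, for Krt8 by 1.97 and 1.24, and for Vim by 0.18 to 1.52, a range that holds the Krt8 value of pool 3. Both keratins were named for the smallest p of their list, so setting their size beside Vim supports nothing.

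**Figure D3:**
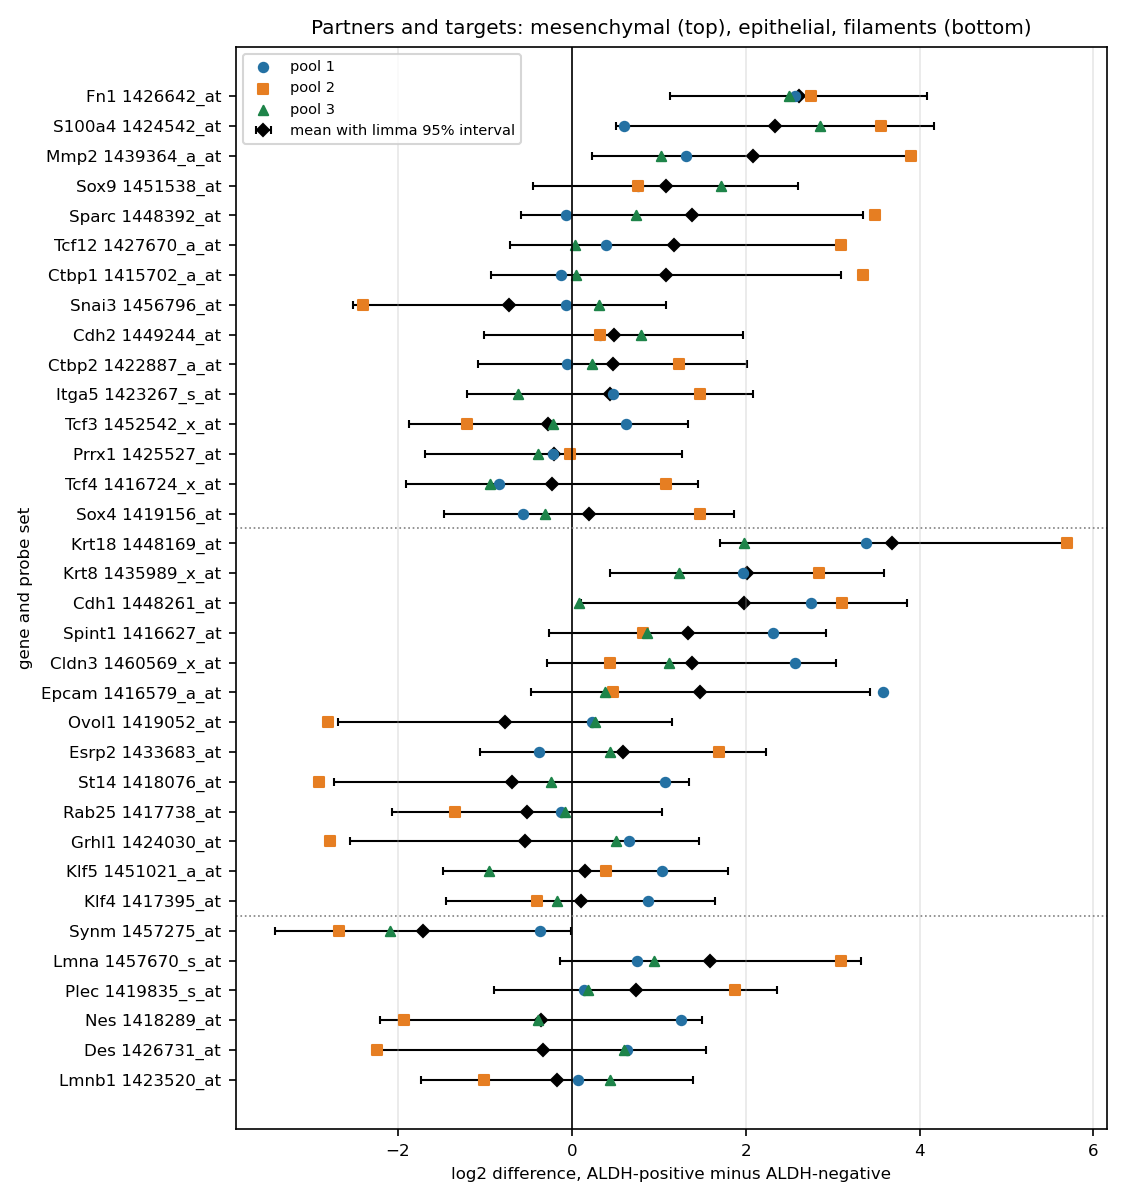
Log2 difference (x axis, ALDH-positive minus ALDH-negative) of the tested partners and targets (y axis), with pools as coloured marks and limma means with 95% intervals as diamonds and bars. Dotted lines divide 15 mesenchymal, 13 epithelial and 6 filament genes. The 3 pools of Fn1 lie together (2.50 to 2.75), while Krt18 spreads from 1.98 to 5.70.

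The third list held 6 genes of other intermediate filaments and a linker, the nuclear lamins Lmna and Lmnb1 among them. All 6 were tested, with 0 past the adjusted threshold, 2 higher, 4 lower and a median of -0.25. The median was 0.34 without pool 2, 0.25 in the values as deposited and 0.42 in arrays centred on their median, so that its sign depends on the scaling. Synm, the filament protein synemin, read 5.04, 7.30 and 5.999 on the ALDH-negative arrays and 4.67, 4.63 and 3.90 on the ALDH-positive ones. It was lower in each pool, by values of -0.36, -2.67 and -2.10, and the fractions did not overlap (mean -1.71, SE 0.73, limma adjusted p = 0.89), with -1.23 without pool 2. In this direction 3.4% of all tested probe sets did not overlap. The lamin gene Lmna differed by 0.75, 3.09 and 0.94 (mean 1.59, SE 0.74), and by 0.84 without pool 2. The linker plectin, Plec, differed by 0.73 (SE 0.70) and the filament gene Nes by -0.35 (SE 0.79), with 0.16 and 0.43 without pool 2.

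The labelled cell type was checked on 9 surface epithelium markers. Their mean read 3.60, 4.55 and 3.79 on the ALDH-negative arrays and 7.86, 7.84 and 7.01 on the ALDH-positive ones, and 9 of the 9 were above the filter level in their mean. On the ALDH-negative arrays Bnc1 read 1.92, 1.47 and 1.94, below the filter level, while Wt1 read 5.16, 5.45 and 5.10. For the ALDH-negative fraction these markers thus gave the label little support, and the cell content of neither fraction was tested. The mean over 7 fibroblast and stroma markers read 3.67, 4.17 and 4.84 against 5.56, 5.77 and 5.46, with 6 of 7 above the filter. Lum, which encodes the stromal proteoglycan lumican, lay below the filter level on every array, and Col3a1, a fibrillar collagen, read 4.88, 3.44 and 6.61 against 8.92, 8.75 and 8.96, the largest difference of the list. In pool 3 the collagen gene Col1a2, the proteoglycan gene Dcn and the receptor gene Pdgfra were lower in ALDH-positive cells, by values of -1.17, -0.67 and -0.36. Over 5 smooth muscle and pericyte markers the mean read 3.66, 4.68 and 4.27 against 5.37, 5.14 and 5.20, with 3 of 5 above the filter. Of these 3, Acta2 differed by 3.39, 4.51 and 2.86 and Tagln by 3.74, 2.90 and 2.17. The third, Myh11, differed by 1.48, -3.30 and -1.33. Cnn1 and Rgs5, below the filter, had mean differences of -0.02 and -0.28, so that the list did not move as 1. The stromal and the smooth muscle means were thus higher in ALDH-positive cells of each pool, as was that of the surface epithelium. Their part in the values of Vim, Fn1 and Twist2 was not tested.

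Markers of follicle and steroid-producing cells were read in both fractions. The mean over 5 measured steroidogenic markers read 8.58, 4.76 and 8.29 on the ALDH-negative arrays and 8.15, 8.13 and 7.76 on the ALDH-positive ones (4 of 5 above the filter). On the ALDH-positive arrays these means lay above those of the surface epithelium markers (7.86, 7.84 and 7.01). That over 5 granulosa markers read 6.53, 3.68 and 5.38 against 6.14, 5.79 and 5.41 (4 of 5 above the filter). Over 4 oviduct markers the means lay between 2.16 and 3.21, with 1 of 4 above the filter. Pax8, a factor of oviduct epithelium, lay below the filter level on 4 of the 6 arrays. It was higher in ALDH-positive cells of each pool, by 0.86, 1.09 and 0.67, which no other marker of this list was. Ovgp1 read 4.7 on the ALDH-positive array of pool 2 and 1.20 to 2.60 on the others. The part of these marker lists in the values of Vim, Zeb1 and Zeb2 was not tested.

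**Figure D4:**
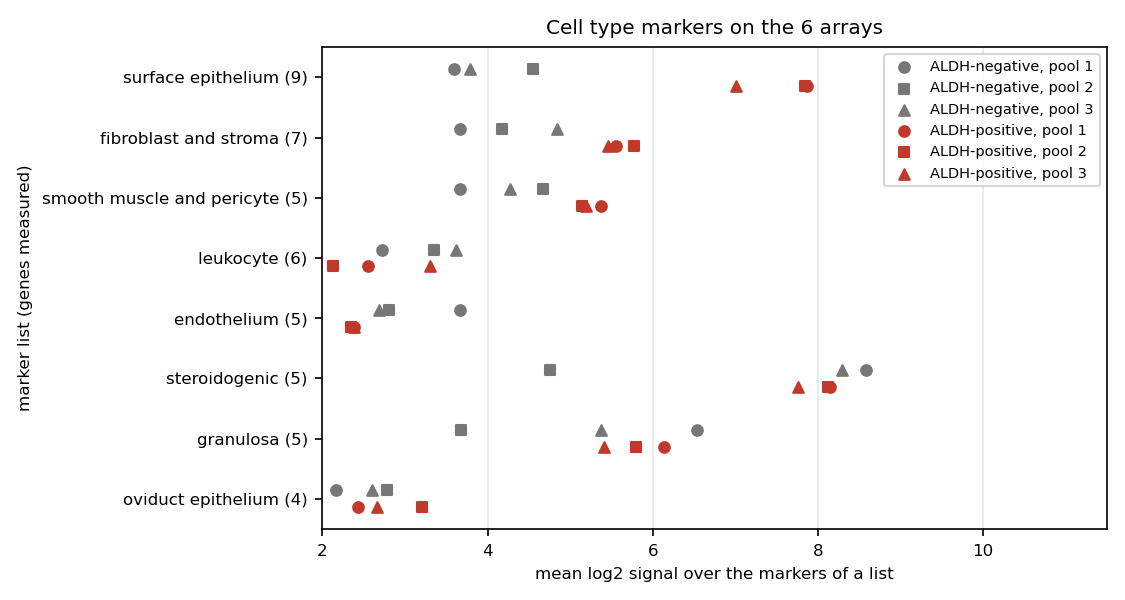
Mean log2 signal (x axis) over the markers of each cell type (y axis, number of genes measured in brackets) on the 6 arrays, grey for ALDH-negative and red for ALDH-positive, with the shape giving the pool. The surface epithelium means lie at 7.01 to 7.86 in ALDH-positive and at 3.60 to 4.55 in ALDH-negative cells, while the steroidogenic mean is low on the ALDH-negative array of pool 2 alone (4.76).

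The genes most like Vim over the arrays were sought by Pearson correlation of probe set 1438118_x_at with 1 tested probe set of each other gene, over the same 6 arrays. Among 12814 genes with a tested probe set, the 3 highest were Fads2, a fatty acid desaturase (r = 0.993), 2900052N01Rik (r = 0.990) and the chemokine receptor Ccr9 (r = 0.988). Over the 4 arrays of pools 1 and 3 these values were 0.993, 0.995 and 0.993. These arrays are among the 6 used for the choice, so this is no separate check. For Grhl2 the 3 highest were Cd1d2 (r = 0.9997), Catsperg1 (r = 0.999) and Marcks (r = 0.999), and over the 4 arrays 0.998, 0.999 and 0.998. The probe sets used for Vim, Fads2 and Marcks end in "_x_at" and may also bind other sequences. With only 6 arrays, of which pool 2 holds the one that stood apart, such correlations describe these arrays only.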

How the data were processed

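The deposited table holds the authors' processed log2 signal for each of 45101 probe sets on 6 arrays; the scale was taken from the range of 0.035 to 13.06. Per the series design the arrays were Affymetrix Mouse Genome 430 2.0 and the software GeneSifter and SAM, in a paired analysis of 3 pools. The Ovation Pico WTA System was used to amplify cDNA from little RNA, per the labels' protocols. How the authors summarised and normalized the probes is not given in the sources. After 64 control probe sets were removed, arrays, whose medians differed by 0.46, were quantile normalized, and the lower 40% by mean left out. Limma 3.58.1 in R 4.3.3 (lmFit, eBayes) was run with the pool as a block, and tested on simulated data. The correlations of deviations from the group means between same-numbered arrays were 0.34, -0.19 and 0.31 for pools 1 to 3. These values did not show the pairing in each pool, so it rests on the series design. Gene names come from the platform annotation at GEO, with 34945 single-symbol probe sets, 932 with several and 9160 with none, and checked against RefSeq (GRCm38.p6). Members and lists were chosen with earlier results of these data known. Named beside the members are, per list, up to 4 tested genes of smallest unadjusted p, the genes most like Vim and Grhl2, and marker genes; markers other than the list means were chosen after their values were seen. Precision is limited by the number of arrays. Alternatives were another scaling, filter, block, pool, array weights, variance trend and probe set rule.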

Additional observations from a re-analysis of the deposited data

How the results depend on the processing

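No member passed over all probe sets in the paired fit. The count of probe sets past the threshold ran from 0 to 7 when 1 pool was left out, and was 2953 with array weights, which gave pools 1 to 3 weights of 1.30, 0.16 and 4.87. It was 0 in each other setting that gave a count. In that weighted fit 3 member probe sets passed. They had limma adjusted p = 0.042 for Zeb2 1434298_at (1.53), 0.0022 for Zeb2 1454200_at (-2.81) and 0.043 for Vim 1450641_at (1.37). The 2 Zeb2 probe sets were thus called in opposite directions. Both arrays of a pool had the same weight, so these calls rest mostly on pool 3. The pool 3 differences of these probe sets were 2.16, -3.47 and 1.52, in that order. The fit with no replicate block, without the pairing of pools, gave the same differences, such as 1.09 for Zeb2 1422748_at, and 0 calls (542 at an unadjusted p under 0.05, against 661 with the block).

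The median difference of the mesenchymal regulators was 0.49, and 0.26 in the values as deposited, 0.16 to 0.58 when 1 pool was left out, 0.26 with array weights and 0.25 with the mean over the probe sets of a gene. With neither the block nor the pool 2 array of ALDH-negative cells it was 0.25, and 0.23 when the other arrays were normalized again, a setting chosen after seeing the data. The median of the epithelial partners and targets was 1.36 with the lower 60% removed, which leaves fewer genes. Of the 15 tested member probe sets 6 kept their sign in every setting in which they were tested. The cause of the other sign changes was not tested; they follow in the order of the settings. In the values as deposited Vim 1438118_x_at was 0.19 and Nes 0.016. With arrays centred on the median Zeb1 1446127_at was 0.028, Vim 1438118_x_at 0.36 and Nes 0.18. Leaving out 1 pool gave ranges of -0.78 to 0.33 for Zeb1 1446127_at, -0.99 to 2.16 for Zeb2 1422748_at, -0.35 to 1.07 for Zeb2 1434298_at, -0.98 to 0.085 for Zeb2 1456389_at, -2.23 to 0.80 for Zeb2 1454200_at, -0.37 to 0.38 for Vim 1438118_x_at, -1.10 to 0.35 for Grhl2 1452643_at and -1.16 to 0.43 for Nes. With neither the block nor the pool 2 array of ALDH-negative cells the values were 0.30 for Zeb1 1446127_at, -0.58 for Zeb2 1422748_at, 0.25 for Vim 1438118_x_at, 0.32 for Grhl2 1452643_at and 0.29 for Nes, and 0.32, -0.62, 0.23, 0.33 and 0.31 when normalized again. With array weights Zeb1 1446127_at was 0.52, Zeb1 1443005_at 0.050, Zeb2 1422748_at -0.87, Zeb2 1456389_at 0.29, Vim 1438118_x_at 0.24 and Grhl2 1452643_at 0.14. In the mean over probe sets Zeb1 was -0.0020 and Vim 1.03.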
